A study of Mus musculus with 35 samples.

Results

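The Klk1 cluster is the group of tissue kallikrein genes that lie side by side on mouse chromosome 7. It was defined here by 10 gene symbols, Klk1, Klk1b1, Klk1b5, Klk1b8, Klk1b9, Klk1b11, Klk1b21, Klk1b22, Klk1b24 and Klk1b27, and by all 20 array probes annotated to them, out of 21903 named genes and 46089 probes on the array. Expression was measured with Illumina bead arrays in mouse medullary thymic epithelial cells (mTECs) sorted by whether they carried 1 of 6 tissue-restricted antigens. Cells positive for Pdpn, Gp2, Cea1 or Tspan8 were separated from negative cells with antibodies to that antigen. Cells positive for Gad1 or Ins2 were separated from negative cells by reporter mice. The design gives 12 groups in 6 pairs: Pdpn-positive and Pdpn-negative mTECs, Gp2-positive and Gp2-negative mTECs, Gad1-positive and Gad1-negative mTECs, Cea1-positive and Cea1-negative mTECs, Ins2-positive and Ins2-negative mTECs, and Tspan8-positive and Tspan8-negative mTECs. Each group had 3 arrays except Gp2-positive and Ins2-negative mTECs, with 2 usable arrays each, so 34 arrays entered the comparisons. The labels give no strain, age or reporter construct. The arrays of a group are called biological replicates without saying whether they came from separate animals, so the p-values measure the spread between arrays. That spread was pooled over all 12 groups, so the SEs and p-values do not reflect a wider spread in a single group. Cea1 is read here as the antigen named in the labels, without assigning it a gene.

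Tissue kallikreins are secreted serine proteases. Klk1, the tissue kallikrein proper, releases kinin peptides from kininogens. In the mouse it is accompanied by a set of close copies, the Klk1b genes, whose best known site of expression is the granular convoluted tubule of the submandibular salivary gland. Several of these copies are known for binding or cutting growth factors and hormones there. Medullary thymic epithelial cells transcribe large numbers of genes that are otherwise limited to single peripheral tissues, under Aire and other regulators, and so show these products to developing T cells.

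The start regions of 5 of the genes are printed to show how alike the members are there. Array probes of such close copies may bind each other's transcripts, which these regions, lying mostly before the start, cannot show. These 5 were chosen because their differences in the Cea1 sort, given further on, cover the smallest and the largest of the cluster. RefSeq promoter windows (GRCm38.p6, plus strand, 250 bases before to 50 after the annotated start) matched all 10 members. Each line gives 86 bases, 5′ to 3′, with the motif TTTAAA in capitals.
Klk1b8 (chr7:43950572-43950657): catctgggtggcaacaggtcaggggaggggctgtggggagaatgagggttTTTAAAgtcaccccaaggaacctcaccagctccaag
Klk1b1 (chr7:43966668-43966753): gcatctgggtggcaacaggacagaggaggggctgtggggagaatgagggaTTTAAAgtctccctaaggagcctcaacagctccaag
Klk1b27 (chr7:44052223-44052308): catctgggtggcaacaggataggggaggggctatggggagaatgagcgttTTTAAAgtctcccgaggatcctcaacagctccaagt
Klk1b5 (chr7:44216382-44216467): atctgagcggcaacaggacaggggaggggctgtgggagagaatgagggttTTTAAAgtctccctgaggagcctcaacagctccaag
Klk1 (chr7:44225324-44225409): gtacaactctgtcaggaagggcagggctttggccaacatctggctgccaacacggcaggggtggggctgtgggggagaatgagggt
The letters TTTAAA stood in 9 of the 10 windows, at distances of -44 to -17 bases from the annotated start in 8 of them and at 4 bases past it in Klk1b21. The motif reads the same on both strands and occurred in 13.2% of all 32851 windows in the table. The window of Klk1 held no match, and the last bases of its window, at the end of the line printed for it, are close to the bases that precede the capitals in the others. TATAAA, searched on both strands, was in 0 of the 10 windows and in 13.6% of all windows. TGTTCT, a short androgen receptor motif searched on both strands, was in 1 member, Klk1b24, against 19% of all windows. Searched in the same way, CCAAT was in 6 members and 37.4% of windows, and GGGCGG in 1 member and 35.7% of windows. Over the 45 pairs of members, the aligned parts of the windows (205 to 297 bases) were 77.6% to 97.7% identical, with a median of 85.1%. Klk1b21 and Klk1b24 were the most alike at 97.7% over 265 bases, while the 9 pairs with Klk1 ran between 77.6% and 86.1%. Along the chromosome the genes run in the order Klk1b8, Klk1b1, Klk1b9, Klk1b11, Klk1b27, Klk1b21, Klk1b22, Klk1b24, Klk1b5 and Klk1.

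Values are log2 signals after background correction and quantile normalization, and a difference is positive minus negative cells on that log2 scale. A difference was called when limma's moderated test, adjusted by Benjamini-Hochberg over all 34083 probes kept, gave an adjusted p under 0.05. All 20 member probes passed the detection filter, which asked for detection on at least 2 arrays of 1 group. Between 47.12% and 60.76% of probes were detected per array, and arrays of 1 group correlated at r = 0.971 to 0.992 over the kept probes. Where a gene is given without a probe, the value is that of its brightest probe. Signals of different probes are not on 1 scale, so each gene was compared with itself across groups.

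The sorted cells carried markers of medullary epithelium in every group, with 1 exception. The main probe of Epcam, an epithelial adhesion molecule, was not detected on any array of Pdpn-positive, Gad1-negative, Cea1-positive or Cea1-negative mTECs, while each of the other 10 medullary markers was detected on at least 1 array of all 12 groups. The summed signal of the 11 markers was 39900 to 55020 in Gp2-positive and 64150 to 75550 in Gp2-negative mTECs, and between 56660 and 84370 in the other 10 groups.

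**Figure D1:**
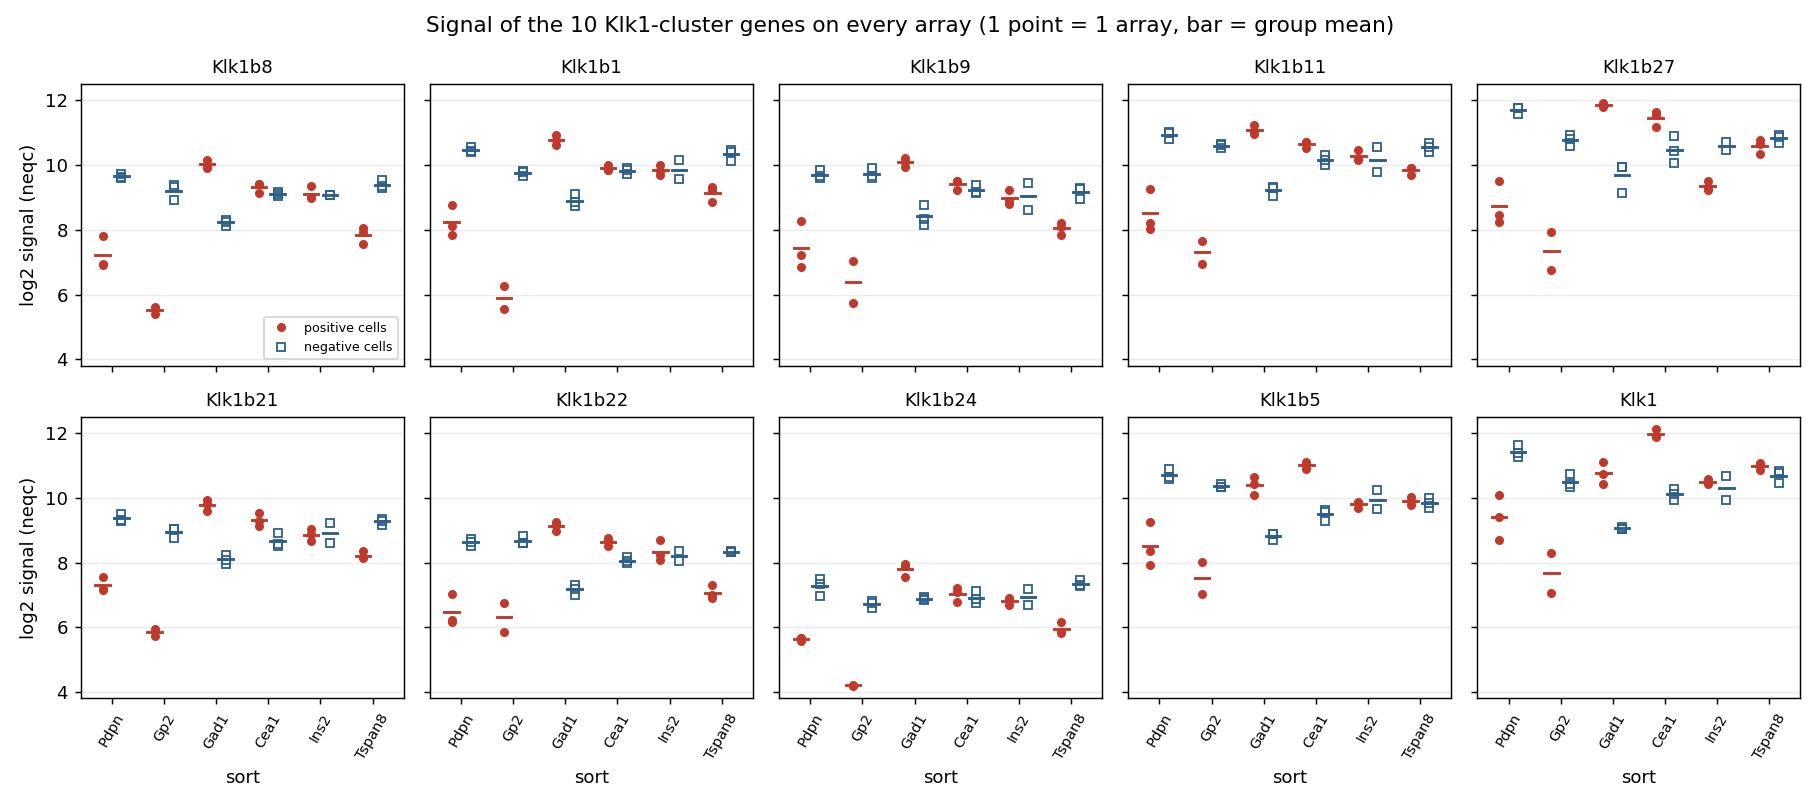
Log2 signal (y axis) of each Klk1-cluster gene on every array, by sort (x axis). Filled red circles are positive cells, open blue squares negative cells, and bars group means, with 2 or 3 arrays a group; levels can be compared within a panel only. All 10 genes lie lower in the positive cells of the Pdpn and Gp2 sorts and higher in those of the Gad1 sort, without overlap of arrays.

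The whole cluster was lower in Pdpn-positive than in Pdpn-negative mTECs. All 20 member probes, and so all 10 genes, were called lower, where 15.9% of all probes were lower and 15.3% higher. The 10 genes differed by -2.96 to -1.62, with a median of -2.20, while the median over all probes was 0.0035. These are bulk samples, so fewer cells expressing a gene and less RNA per cell cannot be told apart.

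Klk1, the kinin-releasing enzyme, had log2 signals of 10.07, 9.42 and 8.70 on the Pdpn-positive arrays, against 11.62, 11.25 and 11.37 on the Pdpn-negative arrays. The positive arrays were all lower and spread more widely than the negative ones. The difference was -2.02 (SE 0.24), a 4.05-fold lower signal, with a limma adjusted p of 1.5e-08. Klk1b27, known from Leydig cells of the mouse testis besides the salivary gland, had the widest gap of the cluster. Its signals were 9.51, 8.45 and 8.22 in Pdpn-positive cells, against 11.74, 11.76 and 11.56 in Pdpn-negative cells. That was a difference of -2.96 (SE 0.25), or 7.77-fold, with a limma adjusted p of 1.0e-11. Klk1b24 had the narrowest, at 5.69, 5.59 and 5.68 in Pdpn-positive cells, against 7.49, 6.98 and 7.33 in Pdpn-negative cells, a difference of -1.62 (SE 0.17). Pdpn-positive replicate 1 had the highest signal of the 3 positive arrays for each of the 10 genes.

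Klk1b9 and Klk1b22, known as binding proteins of epidermal growth factor, behaved alike in this sort. Klk1b9 had 8.26, 6.86 and 7.22 in Pdpn-positive cells, against 9.85, 9.59 and 9.65 in Pdpn-negative cells, a difference of -2.25 (SE 0.25). Klk1b22 had 7.02, 6.17 and 6.24 in Pdpn-positive cells, against 8.64, 8.52 and 8.71 in Pdpn-negative cells, a difference of -2.15 (SE 0.19). The groups did not overlap for any of the 20 member probes, which held for 46.9% of all probes. Leaving out 1 array at a time kept 19 or 20 of the 20 probes called.

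Markers of other cells moved with the Pdpn sort. Of 7 fibroblast markers 6 were higher in Pdpn-positive cells, with a summed signal of 6462 to 9914 in positive and 1249 to 1355 in negative cells, where Col3a1 and Pdgfra were undetected. Of 6 tuft cell markers 4 were lower, with sums of 1335 to 1652 in Pdpn-positive and 3398 to 4559 in Pdpn-negative cells. Of 5 tested markers of proliferating cells 3 were higher, at 1774 to 2211 in Pdpn-positive and 1064 to 1292 in Pdpn-negative cells. Of 7 cortical epithelium markers 4 were higher and 2 lower, with sums of 3851 to 5394 in Pdpn-positive and 6899 to 7323 in Pdpn-negative cells. Of 7 markers of dendritic cells and macrophages 1 was higher and 1 lower, at 972.6 to 1668 in Pdpn-positive and 2855 to 3371 in Pdpn-negative cells. Their part in the result was not tested.

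The cluster was lower still in the Gp2 sort. All 20 probes and 10 genes were called lower in Gp2-positive than in Gp2-negative mTECs, against 16.5% of all probes, and no member probe overlapped between groups, against 51% of all probes that did not. The genes differed by -3.83 to -2.37 with a median of -3.19, beside 0.0080 over all probes. The Gp2-positive group had 2 arrays.

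Klk1b1 showed the largest difference of the cluster in the Gp2 sort. It had 5.56 and 6.25 on the Gp2-positive arrays, against 9.65, 9.80 and 9.77 on the Gp2-negative arrays. The difference of -3.83 (SE 0.20) was a 14.3-fold lower signal, with a limma adjusted p of 5.3e-17. It was -2.70 without background correction and -4.26 with median scaling, called in both. Over the alternative settings its limma adjusted p rose to at most 7.4e-05. Klk1b8, its neighbour on the chromosome, had 5.39 and 5.63 in Gp2-positive cells, against 8.93, 9.30 and 9.36 in Gp2-negative cells, a difference of -3.69 (SE 0.19), or -2.38 without background correction. Klk1 had 7.07 and 8.31 in Gp2-positive cells, against 10.72, 10.32 and 10.42 in Gp2-negative cells, a difference of -2.80 (SE 0.26), with -2.18 when Gp2-positive replicate 1 was left out and -3.42 without replicate 2. The 2 positive arrays of Klk1 lay further apart than those of Klk1b8, and both lay under every negative array. Their SD was 0.88, against 0.21 in Gp2-negative cells, while the SE of 0.26 rests on the spread pooled over all groups.

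Klk1b24, like Klk1b27 reported from Leydig cells, was not detected on either Gp2-positive array with either of its 2 probes. Its main probe read 4.21 and 4.22 there, against 6.60, 6.76 and 6.82 in Gp2-negative cells. Measured against the lowest detected signal of those arrays, it was at least 4.89-fold lower in Gp2-positive cells, with a limma adjusted p of 5.2e-13, and its other probe at least 4.99-fold lower. These bounds refer to signals with the background correction and offset of the main processing, and do not carry over to other settings. Without that correction the main probe differed by -0.96, with the authors' normalized values by -1.01 and with an offset of 50 by -1.41 on the log2 scale, still called. The dimmer probes of Klk1b21 were likewise undetected in Gp2-positive cells. Measured in the same way, their estimates were at least 1.46-fold and 1.74-fold lower than in Gp2-negative cells. The main probe of Klk1b21, detected on all of these arrays, had 5.95 and 5.74 in Gp2-positive cells, against 8.75, 9.03 and 9.05 in Gp2-negative cells.

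Between these 2 sorts the size of the drop differed for some genes. A test of the difference of differences found 6 of 10 genes lower in the Gp2 sort beyond their drop in the Pdpn sort, where 16.7% of all probes differed in either direction. Klk1b1 differed most between the sorts, by 1.62 (SE 0.27, limma adjusted p 1.9e-05). For Klk1 the Pdpn drop minus the Gp2 drop was 0.78 (SE 0.35) with a limma adjusted p of 0.14, and for Klk1b22 it was 0.22 (SE 0.29) with a limma adjusted p of 0.72.

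Markers of several other cell types moved with the Gp2 sort. All 8 tested thymocyte markers were higher in Gp2-positive cells, with sums of 12070 to 15760 in positive and 470.4 to 2009 in negative cells, where Rag2 was undetected. All 7 cortical epithelium markers were higher, at 24450 to 32790 in Gp2-positive and 6657 to 7880 in Gp2-negative cells. Of 5 tested markers of proliferating cells 3 were higher, at 3406 to 4990 in Gp2-positive and 1358 to 2395 in Gp2-negative cells. Of 6 keratinocyte markers 5 were lower, at 3825 to 4835 in Gp2-positive and 7775 to 10270 in Gp2-negative cells. Of 6 tuft cell markers 4 were lower, at 1279 to 1316 in Gp2-positive cells, where Pou2f3 was undetected, and 2797 to 3000 in Gp2-negative cells. Of 7 markers of dendritic cells and macrophages 4 were lower, at 1099 to 1402 in Gp2-positive cells, where Itgax, Flt3 and Xcr1 were undetected, and 2872 to 3269 in Gp2-negative cells. Of 7 fibroblast markers 3 were lower, at 824.7 to 1080 in Gp2-positive and 1679 to 1825 in Gp2-negative cells. Their part in the result was not tested. When arrays were scaled to a common median and not quantile-normalized, 10.6% of all probes were higher and 24.6% lower in the Gp2 sort, against 16.7% and 16.5%, and the members' median was -3.61.

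The Gad1 sort ran the other way. All 10 genes and 19 of 20 probes were called higher in Gad1-positive than in Gad1-negative mTECs, where 14.7% of all probes were. The genes differed by 0.92 to 2.17, with a median of 1.74, beside a median of -0.03 over all probes. Positive and negative arrays did not overlap for any of the 20 member probes, which held for 37.9% of all probes.

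Klk1b27 differed most, with 11.83, 11.91 and 11.79 in Gad1-positive cells, against 9.14, 9.94 and 9.94 in Gad1-negative cells. The difference was 2.17 (SE 0.25), a 4.50-fold higher signal, with a limma adjusted p of 7.8e-09. The 3 positive arrays lay within a narrow band and the negative replicate 1 stood below the other 2. Klk1 had 10.44, 11.09 and 10.72 in Gad1-positive cells, against 9.09, 9.03 and 9.05 in Gad1-negative cells, a difference of 1.69 (SE 0.24) or 3.23-fold. Klk1b22, the epidermal growth factor binding protein, had 9.17, 8.98 and 9.24 in Gad1-positive cells, against 7.02, 7.31 and 7.19 in Gad1-negative cells, a difference of 1.96 (SE 0.19). Its relative Klk1b9 had 9.92, 10.09 and 10.21 in Gad1-positive cells, against 8.33, 8.75 and 8.15 in Gad1-negative cells, a difference of 1.66 (SE 0.25).

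Klk1b24 moved least in the Gad1 sort. It had 7.56, 7.90 and 7.94 in Gad1-positive cells, against 6.84, 6.95 and 6.86 in Gad1-negative cells, a difference of 0.92 (SE 0.17, limma adjusted p 5.0e-05). The single probe not called was a dimmer one of Klk1b5, at 0.63 with a limma adjusted p of 0.096, while the main probe of Klk1b5 was 1.56 higher. A dim probe of Klk1b21 was undetected on all Gad1-negative arrays. Its signal was 2.73-fold higher in Gad1-positive cells, a difference of 1.45 (SE 0.20).

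Markers of several other cell types moved with the Gad1 sort. All 6 keratinocyte markers were higher, with sums of 16680 to 18190 in Gad1-positive and 1800 to 1937 in Gad1-negative cells. All 6 tuft cell markers were higher, at 2853 to 3364 in Gad1-positive and 426.9 to 576.6 in Gad1-negative cells, where Pou2f3 was undetected. All 5 tested markers of proliferating cells were lower, at 543.6 to 670.5 in Gad1-positive and 3307 to 4776 in Gad1-negative cells. Of 7 markers of dendritic cells and macrophages 2 were higher and 0 lower, at 3642 to 5472 in Gad1-positive and 1439 to 2277 in Gad1-negative cells. Their part in the result was not tested.

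**Figure D2:**
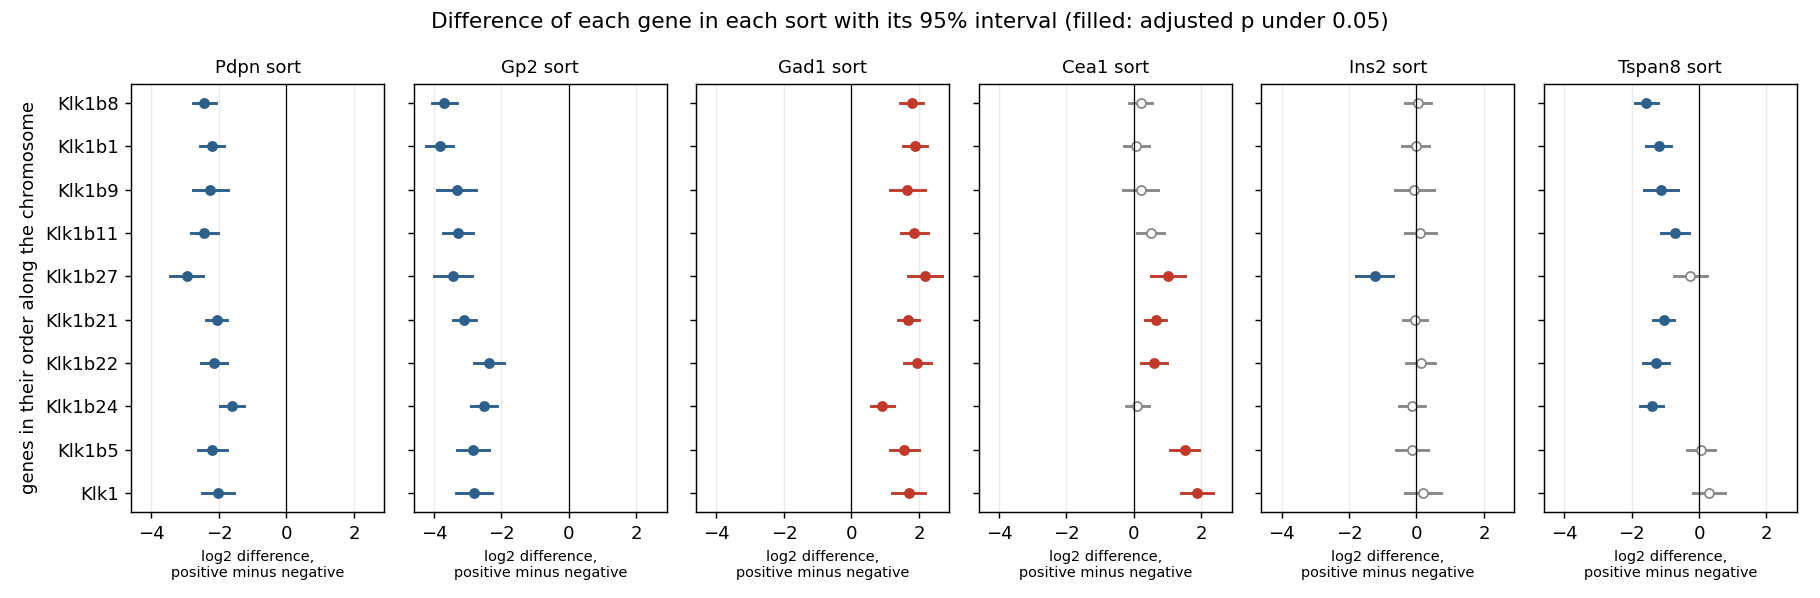
Log2 difference, positive minus negative cells (x axis), of each Klk1-cluster gene in each sort, with its 95% interval from the limma fit; genes run down the page in chromosomal order. Filled points passed an adjusted p of 0.05, in red where higher and blue where lower in positive cells, and open grey points did not. In the Cea1 sort the differences run between 0.07 for Klk1b1 and 1.86 for Klk1, and in the Tspan8 sort between -1.56 for Klk1b8 and 0.29 for Klk1.

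In the Cea1 sort all 10 gene differences were above 0, but only part of the cluster was called. Members were not tested against each other. Klk1, Klk1b5, Klk1b27, Klk1b21 and Klk1b22 were called higher in Cea1-positive than in Cea1-negative mTECs, by 0.59 to 1.86, and the other 5 genes were not called. By probes, 8 of 20 were higher and 0 lower, where 10.7% of all probes were higher and 12.6% lower. The median of the 10 genes was 0.54, beside -0.03 over all probes.

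Klk1 had the largest difference, with 11.86, 11.91 and 12.11 in Cea1-positive cells, against 9.93, 10.27 and 10.11 in Cea1-negative cells. Every positive array lay above every negative one by more than the spread within either group. The difference of 1.86 (SE 0.24) was 3.63-fold, with a limma adjusted p of 1.5e-07. Klk1b5, the direct neighbour of Klk1, came next with 11.10, 10.89 and 11.01 in Cea1-positive cells, against 9.29, 9.55 and 9.63 in Cea1-negative cells. Its difference was 1.51 (SE 0.21, limma adjusted p 8.7e-07), and its other probes differed by 1.32 and 1.07, both called. Klk1b27 had 11.54, 11.63 and 11.17 in Cea1-positive cells, against 10.04, 10.89 and 10.42 in Cea1-negative cells, a difference of 1.00 (SE 0.25, limma adjusted p 0.0024).

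Klk1b1 showed no measurable difference in the Cea1 sort. It had 9.84, 9.98 and 9.84 in Cea1-positive cells, against 9.72, 9.89 and 9.84 in Cea1-negative cells. The arrays overlapped, and the difference of 0.07 had a 95% interval of -0.29 to 0.43. Klk1b8 differed by 0.20 (interval -0.14 to 0.54), Klk1b9 by 0.20 (-0.32 to 0.71) and Klk1b24 by 0.10 (-0.24 to 0.45). Klk1b11 had 10.70, 10.72 and 10.52 in Cea1-positive cells, against 9.98, 10.15 and 10.30 in Cea1-negative cells, which did not overlap, but its difference of 0.50 had a limma adjusted p of 0.067. That p was 0.045 without background correction, 0.037 with the authors' normalized values and 0.015 with the sort fitted alone.

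The smaller calls were Klk1b21 and Klk1b22. Klk1b21 had 9.53, 9.29 and 9.12 in Cea1-positive cells, against 8.59, 8.91 and 8.51 in Cea1-negative cells, a difference of 0.64 (SE 0.15, limma adjusted p 0.0017). Klk1b22 had 8.67, 8.51 and 8.76 in Cea1-positive cells, against 7.98, 8.04 and 8.16 in Cea1-negative cells, a difference of 0.59 (SE 0.19, limma adjusted p 0.021). The call of Klk1b22 was lost, at adjusted p 0.055 to 0.085, when Cea1-positive replicate 1 or 3 or Cea1-negative replicate 1 or 2 was left out, and both calls were lost with median scaling, at adjusted p 0.11 for Klk1b21 and 0.15 for Klk1b22. With median scaling 5 of the 20 probes were called higher, where 5.94% of all probes were. Positive and negative arrays did not overlap for 10 of the 20 member probes, against 32.9% of all probes.

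The Gad1 and Cea1 differences were then set against each other by a test of the difference of differences. It found 8 of 10 genes higher in the Gad1 sort beyond their change in the Cea1 sort, where 16.6% of all probes differed in either direction. Klk1b1 differed by 1.81 (SE 0.25, limma adjusted p 2.5e-06) and Klk1b8 by 1.59 (SE 0.24, limma adjusted p 7.1e-06). The other 2 genes were Klk1, at -0.17 (SE 0.33, limma adjusted p 0.81), and Klk1b5, at 0.06 (SE 0.30, limma adjusted p 0.93).

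Markers of several other cell types moved with the Cea1 sort. Of 6 tuft cell markers 5 were higher, with sums of 8723 to 16330 in Cea1-positive and 240.1 to 302.5 in Cea1-negative cells, where Trpm5 and Il25 were undetected. All 6 keratinocyte markers were higher, at 14670 to 18290 in Cea1-positive and 5018 to 6368 in Cea1-negative cells, and all 5 markers of proliferating cells lower, at 425.1 to 674.4 in Cea1-positive and 1563 to 2531 in Cea1-negative cells. Of 5 endothelial markers 4 were higher, at 334.1 to 671.4 in Cea1-positive and 175 to 179.7 in Cea1-negative cells. Their part in the result was not tested.

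In the Ins2 sort most of the cluster showed no measurable difference. Only Klk1b27 was called, lower in Ins2-positive than in Ins2-negative mTECs, which is 1 of 20 probes where 14.6% of all probes were lower and 13.3% higher. The 10 genes had a median difference of -0.04, beside 0.0018 over all probes, and 9 of them lay between -0.14 and 0.20.

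Klk1b27 had 9.23, 9.33 and 9.49 on its main probe in Ins2-positive cells, against 10.71 and 10.47 in Ins2-negative cells. The difference was -1.24 (SE 0.28), a 2.37-fold lower signal, with a limma adjusted p of 5.7e-04. Its other probe did not follow, with 8.38, 8.48 and 8.34 in Ins2-positive cells, against 8.83 and 8.31 in Ins2-negative cells, a difference of -0.17 (95% interval -0.57 to 0.23). The probes of Klk1b27 thus disagreed within this sort, and the call rests on 1 of them. Klk1 had 10.43, 10.45 and 10.58 in Ins2-positive cells, against 10.66 and 9.92 in Ins2-negative cells, a difference of 0.20 with an interval of -0.34 to 0.73. The 2 Ins2-negative arrays enclosed the positive ones for Klk1 and were far apart for several members.

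The scaling mattered most in this sort. With median scaling 12 of 20 member probes were lower in Ins2-positive cells and the members' median was -0.68. The same scaling moved the median of all probes to -0.12 and called 25.3% of all probes lower and 5.97% higher. All 6 keratinocyte markers were higher in this sort, at 24410 to 35110 in Ins2-positive and 5533 to 6164 in Ins2-negative cells, and all 5 markers of proliferating cells lower, at 442 to 499.4 in Ins2-positive and 1957 to 2804 in Ins2-negative cells. Of 6 tuft cell markers 3 were higher, at 4977 to 8803 in Ins2-positive and 1548 to 3090 in Ins2-negative cells, where Pou2f3 was undetected. Of 7 markers of dendritic cells and macrophages 1 was higher and 1 lower, at 1230 to 1424 in Ins2-positive and 1945 to 2793 in Ins2-negative cells. Their part in the result was not tested.

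In the Tspan8 sort again only part of the cluster was called. Klk1b8, Klk1b24, Klk1b22, Klk1b1, Klk1b9, Klk1b21 and Klk1b11 were called lower in Tspan8-positive than in Tspan8-negative mTECs, by -1.56 to -0.71. Klk1, Klk1b5 and Klk1b27 were not called. By probes, 14 of 20 were lower and 0 higher, where 18.4% of all probes were lower and 16.5% higher. The gene median was -1.09, beside 0.0040 over all probes.

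Klk1b8 had 7.92, 8.04 and 7.55 in Tspan8-positive cells, against 9.36, 9.29 and 9.53 in Tspan8-negative cells. The difference was -1.56 (SE 0.17), a 2.95-fold lower signal, with a limma adjusted p of 1.1e-09. Klk1b22 had 7.29, 6.99 and 6.90 in Tspan8-positive cells, against 8.33, 8.32 and 8.36 in Tspan8-negative cells, a difference of -1.28 (SE 0.19). For both genes every positive array lay under every negative one. Klk1b24 had 6.17, 5.86 and 5.82 in Tspan8-positive cells, against 7.47, 7.27 and 7.31 in Tspan8-negative cells. Its difference was -1.40 (SE 0.17), and that of its other probe -0.63, called as well. Klk1b1 had 9.23, 9.31 and 8.84 in Tspan8-positive cells, against 10.45, 10.41 and 10.12 in Tspan8-negative cells, a difference of -1.20 (SE 0.18).

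Klk1 and Klk1b5 stood apart from these. Klk1 had 10.86, 11.00 and 11.08 in Tspan8-positive cells, against 10.77, 10.46 and 10.81 in Tspan8-negative cells. The positive arrays were all above the negative ones, but the difference of 0.29 (SE 0.24) had a limma adjusted p of 0.39. Fitted on the arrays of this sort alone, the same difference had a limma adjusted p of 0.047. Klk1b5 had 10.01, 9.90 and 9.79 in Tspan8-positive cells, against 10.00, 9.70 and 9.82 in Tspan8-negative cells, which overlapped (difference 0.06, interval -0.37 to 0.49). Its 2 other probes were not called either, at 0.21 and 0.12.

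Klk1b27 again gave different calls by probe. Its main probe had 10.63, 10.75 and 10.33 in Tspan8-positive cells, against 10.69, 10.87 and 10.93 in Tspan8-negative cells, a difference of -0.26 with an interval of -0.76 to 0.25. Its other probe had 8.35, 7.91 and 8.12 in Tspan8-positive cells, against 8.83, 9.02 and 8.88 in Tspan8-negative cells, a called difference of -0.78 (SE 0.18). The smallest called gene, Klk1b11, had 9.69, 9.89 and 9.91 in Tspan8-positive cells, against 10.41, 10.67 and 10.56 in Tspan8-negative cells. Its difference of -0.71 was not called with median scaling, at -0.50 and adjusted p 0.091. Over the 20 probes 16 did not overlap between groups, against 49.7% of all probes.

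Keratinocyte and tuft cell markers moved with the Tspan8 sort. All 6 keratinocyte markers were higher, at 59480 to 66280 in Tspan8-positive and 4208 to 5816 in Tspan8-negative cells, and all 6 tuft cell markers, at 7667 to 9467 in Tspan8-positive and 1007 to 1368 in Tspan8-negative cells. All 5 markers of proliferating cells were lower, at 227 to 299.9 in Tspan8-positive and 1929 to 2500 in Tspan8-negative cells. Of 7 markers of dendritic cells and macrophages 2 were higher and 2 lower, at 1251 to 1433 in Tspan8-positive and 2235 to 2886 in Tspan8-negative cells. Their part in the result was not tested.

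**Figure D3:**
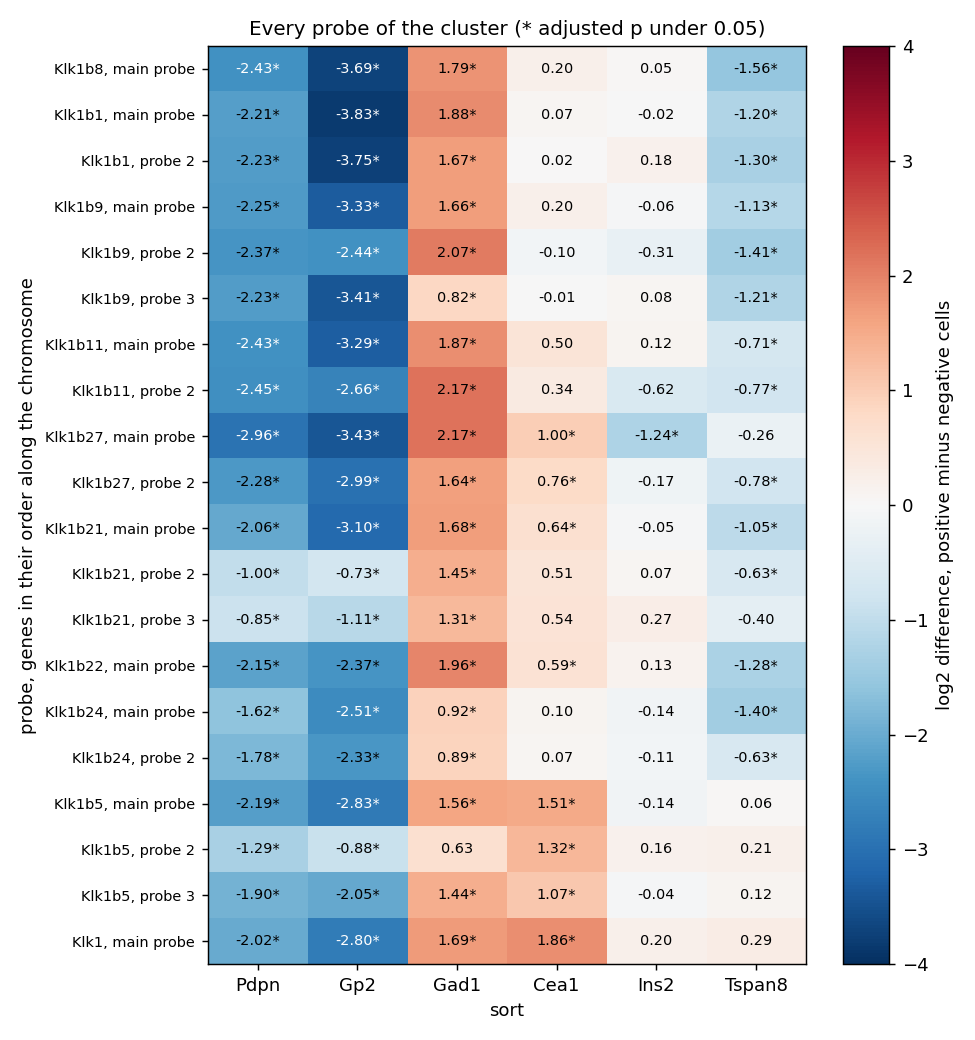
Log2 difference, positive minus negative cells, of every one of the 20 member probes (rows) in the 6 sorts (columns), coloured on a scale of -4 (blue) to 4 (red), with asterisks at an adjusted p under 0.05. Probes of 1 gene lie next to each other, and those of Klk1b27 part in the Ins2 sort, at -1.24 and -0.17.

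Every member's difference depended on the sort. A limma F test that the 6 differences are equal was past an adjusted p of 0.05 for 20 of 20 member probes, against 52% of all probes, with adjusted p running between 1.8e-18 for Klk1b8 and 7.7e-13 for Klk1b9 among the main probes. The Pdpn difference lay below the Gad1, Cea1 and Ins2 differences for 10 of 10 genes, against 36.7%, 23.1% and 25.7% of all probes that differed in either direction. It was called below the Tspan8 difference for 9 genes, against 24% of all probes. The main probe of Klk1b24 was not called, at -0.21 (SE 0.24, limma adjusted p 0.63). Its other probe was called, at -1.16 (SE 0.29, limma adjusted p 0.0026). The Gp2 difference lay below the Gad1, Cea1, Ins2 and Tspan8 differences for 10 of 10 genes, against 37.5%, 24.9%, 28.4% and 26.1% of all probes. The Gad1 difference lay above the Tspan8 difference for 10 of 10 genes, against 26.3% of all probes. The Gad1 sort differed from the Ins2 sort, where both sorts used reporter mice, for 10 of 10 genes, against 15.9% of all probes. The Cea1 sort differed from the Tspan8 sort for 10 of 10 genes, against 10.5% of all probes. The Cea1 sort differed from the Ins2 sort for 3 genes, Klk1, Klk1b5 and Klk1b27, against 7.51% of all probes. The Ins2 sort differed from the Tspan8 sort for 5 genes, Klk1b1, Klk1b8, Klk1b21, Klk1b22 and Klk1b24, against 12.4% of all probes.

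The order of the 12 groups, from the highest to the lowest mean, is given as a description. For Klk1 it ran Cea1-positive 11.96 ± 0.13, Pdpn-negative 11.41 ± 0.19, Tspan8-positive 10.98 ± 0.11, Gad1-positive 10.75 ± 0.33, Tspan8-negative 10.68 ± 0.19, Gp2-negative 10.49 ± 0.21, Ins2-positive 10.48 ± 0.08, Ins2-negative 10.29 ± 0.52, Cea1-negative 10.10 ± 0.17, Pdpn-positive 9.40 ± 0.69, Gad1-negative 9.06 ± 0.03 and Gp2-positive 7.69 ± 0.88 (mean log2 signal ± SD, with n = 3, or 2 in Ins2-negative and Gp2-positive cells). Neighbours in this order overlapped in 8 of 11 pairs. The 3 that did not were Cea1-positive above Pdpn-negative, Pdpn-negative above Tspan8-positive, and Gad1-negative above Gp2-positive.

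For Klk1b8, at the far end of the cluster, the order began with Gad1-positive 10.01 and Pdpn-negative 9.65 and ended with Tspan8-positive 7.83, Pdpn-positive 7.22 and Gp2-positive 5.51. Gp2-positive cells were the lowest of the 12 groups for all 10 genes. By their brightest probes, Gad1-positive cells were the highest for 8 genes, and Cea1-positive cells for the other 2, Klk1 and Klk1b5. Some dimmer probes placed another group first. A Klk1b9 probe was highest in Cea1-negative cells (8.50) and a Klk1b24 probe in Pdpn-negative cells (6.94). A Klk1b5 probe had 8.04 in Gad1-positive and 8.03 in Cea1-positive cells. Over the 10 genes, 6 to 8 of the 11 neighbouring pairs overlapped. The labels do not say whether sorts shared mice or days, so the order carries no test.

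The members followed each other closely over the groups. Across the 12 group means, the 45 pairs of main probes of different genes had Pearson r of 0.72 to 0.99, with a median of 0.93. The 13 pairs of probes of the same gene had r of 0.82 to 1.00, also with a median of 0.93. After each group's mean was subtracted, the 34 arrays gave r of 0.03 to 0.86 between genes (median 0.62) and -0.04 to 0.90 within genes (median 0.51). These points share arrays, and the probes may share transcripts through cross-binding. The medians over group means were thus about the same within and between genes. They cannot rank likeness within against between genes, since pairs between genes used only brightest probes and pairs within genes included dim ones. Klk1 and Klk1b5 had r = 0.96 with each other, and Klk1 and Klk1b9 r = 0.78.

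Outside the cluster, 5232 other genes were ranked by the likeness of their 12 group means to the median profile of the 10 members. Only genes whose group means had an SD of at least 0.5 were ranked. The other Klk1 copies and the other kallikreins were left out, so they could not appear. The closest were Atp4a, the catalytic subunit of the gastric proton pump (r = 0.97), Scgb1c1, a secretoglobin (0.97), Car4, a membrane-bound carbonic anhydrase (0.97), Dcpp3, a salivary demilune cell protein (0.97), Psors1c2 (0.97), Resp18 (0.96), the antimicrobial lectin Reg3a (0.96) and 1700081L16Rik (0.96). The log2 means of Dcpp3 were 6.60 in Pdpn-positive and 8.38 in Pdpn-negative cells, 5.03 in Gp2-positive and 7.97 in Gp2-negative cells, and 9.03 in Gad1-positive and 6.77 in Gad1-negative cells. These correlations are over 12 points that share the same arrays, and they are given as descriptions.

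**Figure D4:**
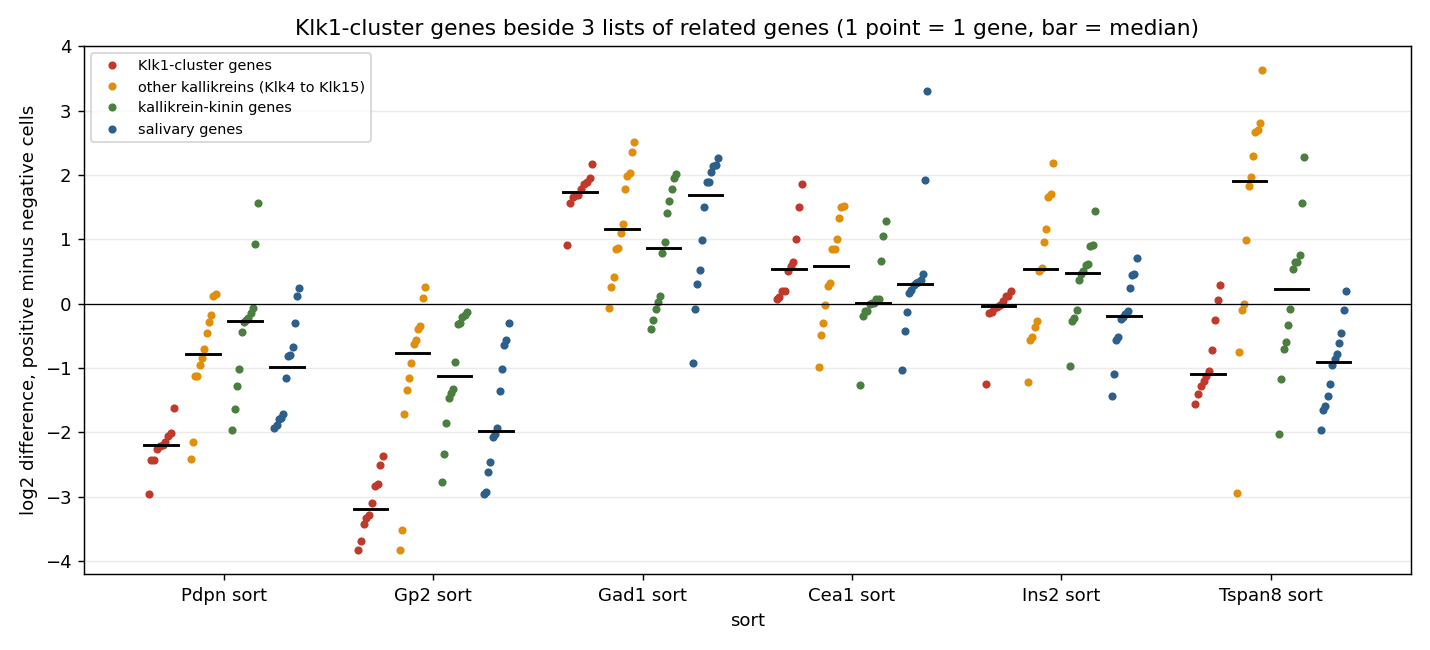
Log2 difference, positive minus negative cells (y axis), of each gene in 4 lists (colours) by sort (x axis), with black bars at list medians. The Klk1-cluster genes have medians of -2.20 in the Pdpn, -3.19 in the Gp2 and -1.09 in the Tspan8 sort, where the other kallikreins have -0.78, -0.77 and 1.90.

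Other close copies of Klk1 were measured for comparison. Klk1b26, a further epidermal growth factor binding protein, and Klk1b16, also known as gamma-renin, were tested, while Klk1b3 and Klk1b4, subunits of the nerve growth factor complex, were not analysed here. Both tested genes were lower in the Pdpn and Gp2 sorts and higher in the Gad1, Cea1 and Ins2 sorts. Klk1b26 differed by -2.04, -3.00, 1.89, 1.16 and 0.79 in these 5 sorts in that order. In the Tspan8 sort Klk1b16 was higher by 1.88 (SE 0.27, limma adjusted p 6.1e-07), with a mean of 8.23 in Tspan8-positive and 6.35 in Tspan8-negative cells, and Klk1b26 was not called at 0.16.

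The other kallikreins of the locus, Klk4 to Klk15, are proteases of skin, teeth, brain and other tissues. Of these 12 genes 0 were higher and 7 lower in the Pdpn sort (median -0.78), 0 higher and 7 lower in the Gp2 sort (-0.77), and 9 higher and 0 lower in the Gad1 sort (1.17). In the Cea1 sort 6 were higher and 2 lower (0.58), and in the Ins2 sort 5 higher and 1 lower (0.54). In the Tspan8 sort 8 were higher and 2 lower with a median of 1.90, where 0 of the 10 Klk1-cluster genes were higher. Klk4, the enamel protease, fell by 2.95 in the Tspan8 sort, while Klk13 rose by 3.63 and Klk8, or neuropsin, by 2.66.

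The kinin system was measured as 12 of 13 listed genes. In the Gad1 sort 7 were higher and 0 lower, with a median of 0.87, led by Kng1, a kininogen and so the class of substrate that Klk1 cuts, at 1.96. Kng1 had a mean of 10.10 in Gad1-positive and 8.14 in Gad1-negative cells. In the Pdpn sort Kng1 differed by -1.28, at 8.21 in Pdpn-positive and 9.49 in Pdpn-negative cells, and in the Gp2 sort by -2.33, at 6.79 in Gp2-positive and 9.12 in Gp2-negative cells. Bdkrb1, the inducible kinin receptor, differed by -2.03 in the Tspan8 sort and by -1.26 in the Cea1 sort, both called. Over the list, 2 genes were higher and 4 lower in the Pdpn sort (median -0.27), 0 higher and 7 lower in the Gp2 sort (-1.12), 3 higher and 1 lower in the Cea1 sort (0.01), 5 higher and 1 lower in the Ins2 sort (0.48), and 6 higher and 3 lower in the Tspan8 sort (0.22).

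Other products of salivary glands were measured as 12 of 18 listed genes. They had 0 higher and 7 lower in the Pdpn sort (median -0.98), 0 higher and 8 lower in the Gp2 sort (-1.98), 8 higher and 1 lower in the Gad1 sort (1.69), 2 higher and 1 lower in the Cea1 sort (0.30), 1 higher and 1 lower in the Ins2 sort (-0.19), and 0 higher and 7 lower in the Tspan8 sort (-0.91). The demilune proteins Dcpp1 and Dcpp3 were among the genes called in the Pdpn, Gp2, Gad1 and Tspan8 sorts. Dcpp1 differed by -1.93, -2.62, 2.05 and -1.97 in those 4 sorts in that order.

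Regulators and maturity markers of medullary cells stood beside these lists. Of 6 genes, 0 were higher and 4 lower in the Pdpn sort (median -0.63), 0 higher and 6 lower in the Gp2 sort (-2.10), 1 higher and 1 lower in the Gad1 sort (0.05), 0 higher and 4 lower in the Cea1 sort (-0.61), 2 higher and 2 lower in the Ins2 sort (-0.17), and 0 higher and 6 lower in the Tspan8 sort (-1.80). Aire, the transcriptional regulator of tissue-restricted genes, was called lower in 5 sorts, at -1.32 in the Pdpn, -2.26 in the Gp2, -0.96 in the Cea1, -0.47 in the Ins2 and -2.76 in the Tspan8 sort. Its mean was 10.24 in Tspan8-positive and 13.00 in Tspan8-negative cells, and 11.67 in Cea1-positive and 12.63 in Cea1-negative cells. Beside Aire, the median of the 10 members was -2.20 in the Pdpn, -3.19 in the Gp2 and -1.09 in the Tspan8 sort. It was 0.54 in the Cea1 and -0.04 in the Ins2 sort. In the Gad1 sort it was 1.74, while Aire differed by -0.10 and was not called. The part of Aire in these differences was not tested.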

How the data were processed

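Total RNA of sorted mTECs was hybridised as biotin-labelled cRNA, per the labels' protocols. The authors deposited unnormalized bead intensities with detection p-values, per the file headers, and a table of intensity values normalized by the authors on a linear scale, with array medians of 94.9 to 113; its method is not given in the sources used here. The column of Ins2-negative replicate 2 in the unnormalized table holds, for all 46089 probes, the same numbers as the detection column of Ins2-positive replicate 1, so that array was left out of all but the fit on the authors' normalized values.

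Probes were linked between the tables by their values, since the unnormalized table carries bead numbers without gene names; all 46089 linked, with r of 0.992 to 1 per array. Of these, 35667 had 1 symbol and 10422 none in the platform annotation, whose symbols were updated through RefSeq. Signals were corrected with normexp (offset 16), with the negative controls estimated through the detection calls, quantile-normalized and taken as log2 (neqc, limma 3.58.1, R 4.3.3). A probe was kept if 2 or more arrays of any 1 group detected it (p under 0.05), which left 34083. A cell-means model of the 12 groups was fitted with lmFit and eBayes with a trend (22 residual degrees of freedom) and adjusted by Benjamini-Hochberg. The fit was tested on simulated data with known changes. The number of arrays limits the precision. The signal of an undetected probe was raised to the lowest detected signal of its array where it lay under that. The folds that this lowered are given as lower bounds, which refer to the signals of the main processing. These bounds concern the estimated fold and do not include its sampling error.

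All 10 members were described with every probe. Lists were given as counts with at most 3 genes named per list and sort, those of the smallest adjusted p, besides genes named as undetected or as most like the members, and Aire and the Dcpp genes, which are given across sorts and were chosen after their values were seen. Members and lists were chosen with earlier results of these data known. Same-numbered positive and negative arrays deviated together in the Pdpn sort (r of 0.16 to 0.23 in each of 3 pairs), the only sort with 3 pairs all over 0.1, which was taken as paired. The 2 pairs of the Gp2 sort had r of 0.11 and 0.22, too few pairs for that rule, and the pairs of the other sorts ran between -0.02 and 0.19. Over all sorts the 16 same-numbered pairs had a median r of 0.09, and the 32 other pairs -0.05. The main fit did not use the pairing, so the SEs and adjusted p-values of the Pdpn sort are unpaired. Alternatives were median scaling, uncorrected background, the authors' normalized values, sorts normalized separately, other detection filters, an offset of 50, 1 probe per gene, array weights, single-sort fits, a replicate block and leaving out each array. Promoter windows came from RefSeq (GRCm38.p6) and were aligned with Biopython 1.88. Probe and protein sequences were not used here, so cross-binding between members was not measured.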

Additional observations from a re-analysis of the deposited data

Results flagged for a closer look

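The differences of all 10 genes depended on the sort. The limma F test that the 6 differences are equal, adjusted over all kept probes, gave 2.6e-14 for Klk1, 8.8e-18 for Klk1b1, 3.5e-15 for Klk1b5, 1.8e-18 for Klk1b8, 7.7e-13 for Klk1b9, 3.4e-16 for Klk1b11, 3.8e-18 for Klk1b21, 1.8e-15 for Klk1b22, 2.0e-13 for Klk1b24 and 1.8e-15 for Klk1b27; 52% of all probes passed the same test. Between the Gad1 and Cea1 sorts, the difference of Klk1b1 differed by 1.81 and that of Klk1b8 by 1.59, while those of Klk1 (-0.17) and Klk1b5 (0.06) did not pass the test. Groups of 2 or 3 arrays are too small for a check of single outlying arrays.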

How the results depend on the processing

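Each called difference of a single gene was counted once per alternative. Over the alternatives other than leaving out an array, 470 of 473 such checks stayed called in the same direction, and 243 of 247 when 1 array was left out. The checks repeat the same gene differences on the same arrays. The 3 lost calls came with median scaling (Klk1b21 and Klk1b22 in the Cea1 sort, Klk1b11 in the Tspan8 sort), and the 4 others were Klk1b22 in the Cea1 sort. The count of probes higher in the Cea1 sort was 8, and 5 with median scaling and 9 without background correction, with the authors' normalized values, with an offset of 50 and with each sort fitted alone. Klk1b11 in the Cea1 sort gained a call in 3 of these 4 (adjusted p 0.015 to 0.045), all but the offset of 50, and Klk1 in the Tspan8 sort (0.047) with each sort fitted alone. The count lower in the Ins2 sort was 1, and 2 without background correction, with the authors' normalized values, with an offset of 50 and with the replicate block, and 12 with median scaling. The count higher in the Tspan8 sort was 0, and 1 when each sort was fitted alone. With 1 probe per gene the counts, now of 10 genes, were 10 lower in the Pdpn and Gp2 sorts, 10 higher in the Gad1 sort, 5 higher in the Cea1 sort, 7 lower in the Tspan8 sort and 10 by the F test, fewer because fewer probes were tested. Leaving out 1 array gave 19 to 20 probes lower in the Pdpn sort, 18 to 20 in the Gp2 sort, 12 to 14 in the Tspan8 sort and 1 in the Ins2 sort, and 18 to 19 higher in the Gad1 and 7 to 8 in the Cea1 sort.

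The fold of a called gene difference, on the linear scale, moved by over 1.5 times in 29 cases, with no call lost. Of these, 9 came without background correction, 10 with the authors' normalized values and 3 with an offset of 50, all smaller drops. Without background correction the Gp2 differences were -2.70 for Klk1b1, -2.38 for Klk1b8, -2.43 for Klk1b9, -2.03 for Klk1b21, -1.58 for Klk1b22 and -0.96 for Klk1b24, the Pdpn differences -1.46 for Klk1b22 and -0.84 for Klk1b24, and the Tspan8 difference of Klk1b24 -0.77. With the authors' values 8 of these 9 moved likewise, all but Klk1b24 in the Tspan8 sort, and in the Gp2 sort also Klk1b11 (-2.66) and Klk1b27 (-2.77). With median scaling the Ins2 difference of Klk1b27 was -1.87. Without Gp2-positive replicate 1 the Gp2 differences were -2.18 for Klk1, -2.68 for Klk1b9 and -2.82 for Klk1b27, and without replicate 2 -3.42, -3.98 and -4.03.

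Signs turned only where the difference was not called. With median scaling these were Klk1b1 (-0.081) and Klk1b24 (-0.026) in the Cea1 sort, and Klk1 (-0.44), Klk1b8 (-0.62, adjusted p 0.038), Klk1b11 (-0.52) and Klk1b22 (-0.54) in the Ins2 sort. With the authors' values they were Klk1b1 (0.037), Klk1b8 (-0.0346) and Klk1b21 (0.049), and with the replicate block Klk1b9 (0.026) and Klk1b21 (0.050), all in the Ins2 sort. Leaving out 1 array in the Ins2 sort gave -0.17 to 0.57 for Klk1, -0.32 to 0.27 for Klk1b1, -0.43 to 0.14 for Klk1b5, -0.069 to 0.12 for Klk1b8, -0.49 to 0.36 for Klk1b9, -0.27 to 0.51 for Klk1b11, -0.36 to 0.26 for Klk1b21, -0.058 to 0.29 for Klk1b22 and -0.38 to 0.10 for Klk1b24, and in the Tspan8 sort -0.012 to 0.14 for Klk1b5. The cause was not tested. In the paired Pdpn sort the replicate block changed no call of a member gene. Over all sorts the same-numbered arrays correlated at -0.02 to 0.23.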
